A study of Mus musculus with 27 samples.

Results

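The apolipoprotein genes *Apoa1*, *Apoa2*, *Apoa4*, *Apoa5*, *Apob*, *Apoc1*, *Apoc2*, *Apoc3*, *Apoe* and *Apom* were followed in the livers of mice lacking the serine protease HGFAC. These 10 genes were chosen by their symbol, as apolipoproteins made in liver, among 23191 gene symbols of the count table. Each had 1 row. Other apolipoprotein genes that liver expresses, such as *Apof*, were not among them. The family was picked with earlier results of these mice known, so the tests given for its members describe them and are not independent evidence. Liver mRNA of 27 male C57BL/6J mice was measured by RNA-Seq. Littermate controls and whole-body HGFAC-KO mice, in which CRISPR/Cas9 had removed part of the first *Hgfac* exon and the whole next exon, were kept for 4 weeks on chow or on HF/HS, a diet high in fat and sucrose. The groups were 7 controls on chow, 6 HGFAC-KO mice on chow, 7 controls on HF/HS and 7 HGFAC-KO mice on HF/HS. The KO is present in every tissue and is not a liver-specific one. The labels give no batch and no age, and a starting age of 8 weeks is stated for a longer HF/HS feeding of the same line.

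Apolipoproteins are the protein parts of lipoproteins, the particles that carry triglycerides and cholesterol in blood. APOB is the structural protein of VLDL and LDL, and APOA1 and APOA2 are the main proteins of HDL. The smaller exchangeable members move between particles and steer lipoprotein lipase, the enzyme that takes triglycerides out of them: APOC2 activates it, APOC3 inhibits it and APOA5 promotes its action. APOE is a ligand for uptake of particles into hepatocytes, APOC1 slows the clearance of particles, APOA4 rides on triglyceride-rich particles and HDL, and APOM carries sphingosine-1-phosphate on HDL. The liver is the main source of most of them.

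Total counts ranged from 36056177 to 57298657 per mouse (median 47239271), and every member had at least 6006 counts in each mouse, so counting error is small beside the spread between mice. All 10 members passed the filter on low counts in every comparison. *Hgfac* was 201 ± 12.8 CPM (counts scaled to a library's total on named genes, after TMM scaling, mean ± SD, n = 7) in controls and 75.2 ± 8.27 (n = 6) in HGFAC-KO mice on chow, and 271 ± 15.5 and 91.8 ± 7.94 (n = 7 each) on HF/HS, with no overlap of genotypes on either diet. The hepatocyte marker *Alb* was the most abundant transcript. Enterocyte markers, which matter because gut also makes APOA1, APOA4 and APOB, were below 0.5 CPM in every mouse for 4 of 5 genes, with *Sis* at 0 throughout. The remaining one, the fatty acid-binding protein gene *Fabp2*, which liver also expresses, ran from 47.9 to 125 CPM. It rose past the threshold on HF/HS in controls, from 66.8 ± 7.19 to 109 ± 19.9 CPM (n = 7 each).

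The members lie in 2 clusters and at 3 single loci of GRCm38. *Apoa1* (46228580 to 46230466, plus strand), *Apoc3* (46232933 to 46235636, minus), *Apoa4* (46240696 to 46243459, plus) and *Apoa5* (46268633 to 46271919, plus) are neighbours on chromosome 9. *Apoc2* (19671579 to 19677941), *Apoc1* (19689481 to 19692660) and *Apoe* (19696109 to 19699188) share the minus strand of chromosome 7. *Apoa2* is on chromosome 1 (171225054 to 171226379, plus), *Apob* on chromosome 12 (7977648 to 8016835, plus) and *Apom* on chromosome 17 (35128997 to 35132050, minus).

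Together the members held between 4.36% and 5.60% of the counts on named genes, with group medians of 4.53% in controls on chow, 4.74% in HGFAC-KO mice on chow, 5.07% in controls on HF/HS and 4.74% in HGFAC-KO mice on HF/HS. Levels between genes were compared per length, as CPM per kb of merged exons. On this scale the mean over 27 mice was 10130 for *Apoe*, 8690 for *Apoa1* and 7732 for *Apoa2*, ranks 3, 4 and 6 among all genes. *Apoc1* followed at 3099 and *Apoc3* at 983. *Apoa4* at 500.3, *Apob* at 437, *Apoa5* at 301, *Apoc2* at 232 and *Apom* at 220.05 closed the order, against 28488 for *Alb*. Over single mice the ranges of neighbours in this order overlapped, except that *Apoc1* stood apart from both *Apoa2* above it and *Apoc3* below it.

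**Figure D1:**
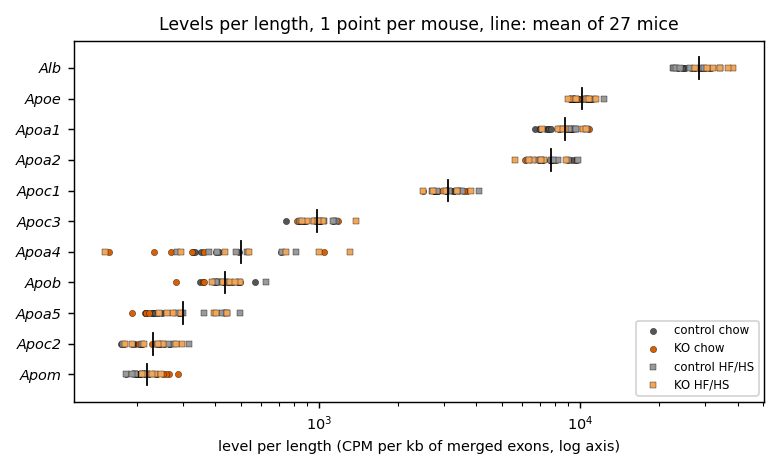
Level per length of the 10 apolipoprotein genes and *Alb* (x axis, CPM per kb of merged exons, log axis), with 1 point per mouse, grey for controls and orange for HGFAC-KO mice, circles for chow and squares for HF/HS, and a line at the mean of 27 mice. *Apoe* is highest of the members at 10130 and *Apom* lowest at 220.05, and *Apoa4* has the widest scatter.

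The HDL proteins were compared first. *Apoa1*, whose product is the main HDL protein and activates LCAT, was lowest in controls on chow and higher in each of the other groups. Chow-fed controls lay between 8248 and 9531 CPM around a median of 9139, and chow-fed HGFAC-KO mice between 10242 and 13350 around 11359. On HF/HS, controls lay between 11164 and 13047 around 11660, and HGFAC-KO mice between 8771 and 12960 around 10622. Each of the 6 HGFAC-KO mice on chow and each of the 7 controls on HF/HS lay above every control on chow, while both genotypes overlapped on HF/HS and both diets overlapped in HGFAC-KO mice.

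**Figure D2:**
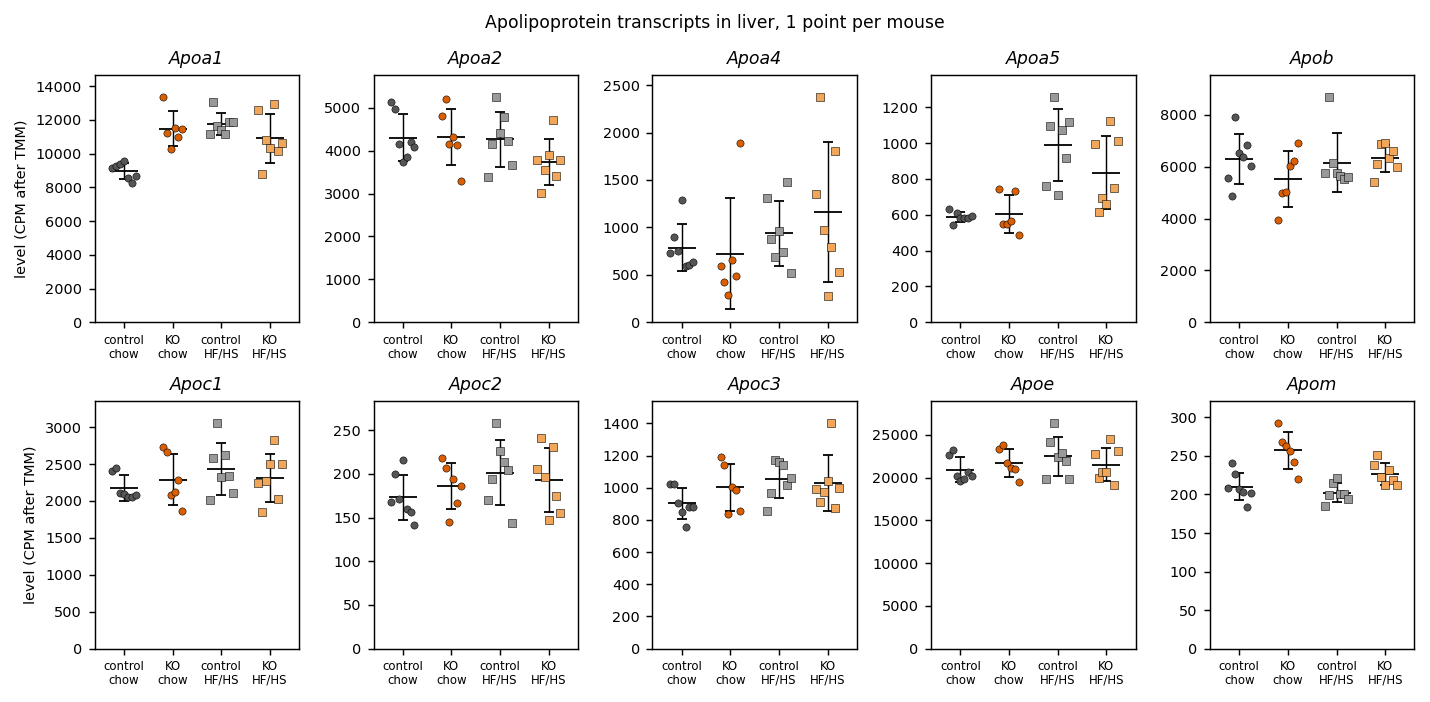
Level of each apolipoprotein gene (y axis, CPM after TMM scaling, from 0) in the 4 groups, with 1 point per mouse and the mean ± SD in black (n = 6 in HGFAC-KO mice on chow and 7 in each other group). *Apoa1* of controls on chow, at 8248 to 9531 CPM, lies below every HGFAC-KO mouse on chow and every control on HF/HS.

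In the fit over all genes, *Apoa1* rose in controls from chow to HF/HS by 0.39 on the log2 scale (SE 0.05, 95% interval 0.27 to 0.50, edgeR quasi-likelihood test, Benjamini-Hochberg adjusted p = 2.92e-04). In this comparison 10.5% of 13525 genes passed the adjusted threshold of 0.05, 4.93% of the genes tested passed upward, and 1.57% had all HF/HS values above all chow values. Between genotypes on chow, *Apoa1* differed by a similar amount, 0.36 (SE 0.06, interval 0.22 to 0.50), and had the second smallest p of 13571 genes after *Hgfac*, but its adjusted p was 0.336 and it did not pass. DESeq2 gave the same difference an adjusted p of 8.17e-06, and 5.56e-05 without its independent filtering. It passed in no other alternative run, and leaving out 1 mouse gave adjusted p from 0.202 to 0.935 in edgeR. On HF/HS the genotype difference of *Apoa1* was -0.11 (interval -0.28 to 0.07, adjusted p = 0.701), and the diet difference in HGFAC-KO mice was -0.07 (interval -0.27 to 0.12, adjusted p = 0.678).

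The genotype difference of *Apoa1* was therefore 0.46 lower on HF/HS than on chow (interaction -0.46, SE 0.10, 95% interval -0.67 to -0.25). This was the smallest unadjusted p of all 13932 genes in the interaction test, while no gene passed after adjustment (adjusted p of *Apoa1* = 0.980 in edgeR and 0.0691 in DESeq2). None of 6 hepatocyte markers passed the threshold between genotypes on either diet. Their summed level, which is mostly *Alb*, was 65049 to 78216 CPM in controls and 73891 to 85486 in HGFAC-KO mice on chow, and 62128 to 78572 and 73617 to 99019 on HF/HS. The part of this sum in the *Apoa1* difference on chow was not tested. In bulk liver, fewer cells of a type and less RNA per cell cannot be told apart.

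The 200 bases upstream of *Apoa1* (chr9:46228380-46228579) and 250 bases upstream of *Apoa5* (chr9:46268358-46268607) are shown because these were the members that rose on HF/HS in controls. Both come from RefSeq on GRCm38.p6, plus strand, written 5′ to 3′, and the *Apoa1* sequence ends at the last base before the annotated gene. Capitals mark matches to motifs searched on both strands.
Apoa1: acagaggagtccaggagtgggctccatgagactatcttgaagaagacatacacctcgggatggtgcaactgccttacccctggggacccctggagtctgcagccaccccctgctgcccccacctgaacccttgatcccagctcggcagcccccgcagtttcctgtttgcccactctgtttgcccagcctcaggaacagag
Apoa5: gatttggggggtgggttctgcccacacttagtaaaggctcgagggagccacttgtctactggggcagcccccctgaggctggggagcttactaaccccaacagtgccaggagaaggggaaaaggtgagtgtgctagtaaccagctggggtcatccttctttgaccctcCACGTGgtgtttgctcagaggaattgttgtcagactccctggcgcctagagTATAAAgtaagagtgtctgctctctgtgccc

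In all, 6 motifs were sought in the 250 bases before each RefSeq start, on both strands, and 8 of 10 members matched an entry (12 windows, *Apoc1* and *Apoc3* not among them). The *Apoa5* window holds CACGTG, the E box, 82 to 77 bases before the first RefSeq start, and TATAAA, the TATA box, 31 to 26 bases before it. RefSeq has another start of *Apoa5* further downstream, which is the start of the annotated gene (46268633). From that start these matches lie 107 to 102 and 56 to 51 bases upstream. Of 32851 mouse promoter windows of that length, 6.02% hold CACGTG and 12.4% hold TATAAA. The whole *Apoa1* window holds none of the 6 motifs. TATAAA was also found before a RefSeq start of *Apoa2*, *Apob* and *Apoe*, and TGTTTAC (forkhead) before a start of *Apoa2* (3.17% of windows). TTGCNNAA (C/EBP) was before a start of *Apoa2* and *Apob* (9.56%), and AGGTCA (nuclear receptor core motif) of *Apoa2* and *Apoc2* (14.02%). The *Apoe* window with TATAAA (19698622 to 19698871) lies inside the annotated gene. The *Apoa2* window with TTGCNNAA and AGGTCA (171221314 to 171221563) lies apart from the window next to the gene, which holds TATAAA and TGTTTAC. Shares are per window, and *Apoa2*, *Apoa5* and *Apoe* had several. CAAAGTCCA (HNF4A), present in 0.384% of windows, was before no member. These matches are letters in a window and not measured sites.

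*Apoa2*, the other abundant HDL protein gene, did not follow *Apoa1*. Its level was 4307 ± 539 CPM (n = 7) in controls and 4321 ± 661 (n = 6) in HGFAC-KO mice on chow, and 4268 ± 638 and 3736 ± 529 (n = 7 each) on HF/HS. All groups overlapped. The largest of its differences was -0.21 (interval -0.45 to 0.02, adjusted p = 0.276) for HF/HS against chow in HGFAC-KO mice, followed by -0.19 (interval -0.41 to 0.03, adjusted p = 0.580) for genotype on HF/HS. With the balance of long and short transcripts in each library, described further on, as a covariate, the former turned to 0.013.

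*Apom*, the HDL-bound carrier of sphingosine-1-phosphate, had higher values in HGFAC-KO mice on both diets. On chow, controls lay between 184 and 240 CPM around a median of 208, and HGFAC-KO mice between 220 and 292 around 260, with 5 of 6 above every control. On HF/HS, controls lay between 185 and 222 around 200.02, and HGFAC-KO mice between 212 and 251 around 223, with 4 of 7 above every control. The difference was 0.30 (SE 0.07, interval 0.15 to 0.45, adjusted p = 0.801) on chow and 0.17 (SE 0.05, interval 0.05 to 0.28, adjusted p = 0.413) on HF/HS. Neither passed in edgeR, and the first passed only in DESeq2 with independent filtering (adjusted p = 0.0151). From chow to HF/HS, *Apom* differed by -0.06 in controls (interval -0.18 to 0.06, adjusted p = 0.575) and by -0.18 in HGFAC-KO mice (interval -0.33 to -0.04, adjusted p = 0.1195). The latter was -0.065 (adjusted p = 0.657) with the balance of long and short transcripts as a covariate.

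Across the members, genotype moved none past the adjusted threshold on either diet, where 0.00737% of genes passed on chow and 0.0148% on HF/HS. At an unadjusted p under 0.05 in edgeR, *Apoa1* and *Apom* were the 2 members on chow, against 5.98% of all genes, and *Apom* was the only 1 on HF/HS, against 9.64%. On chow 8 members had a higher and 2 a lower fitted level in HGFAC-KO mice, and the median of the 10 differences was 0.07 beside 0.0031 over all genes (log2). Of all genes, 51.2% were higher on chow. With the transcript balance as a covariate, *Apoa2*, *Apoa5*, *Apoc1* and *Apoe* turned lower on chow, leaving 4 higher and 6 lower. On HF/HS 3 were higher and 7 lower, with a median of -0.06 beside -0.0015. *Apoa1* on chow was the only member whose genotypes did not overlap, where 0.0737% of genes were higher in this way, and on HF/HS, where the share was 0.0148%, there was none.

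**Figure D3:**
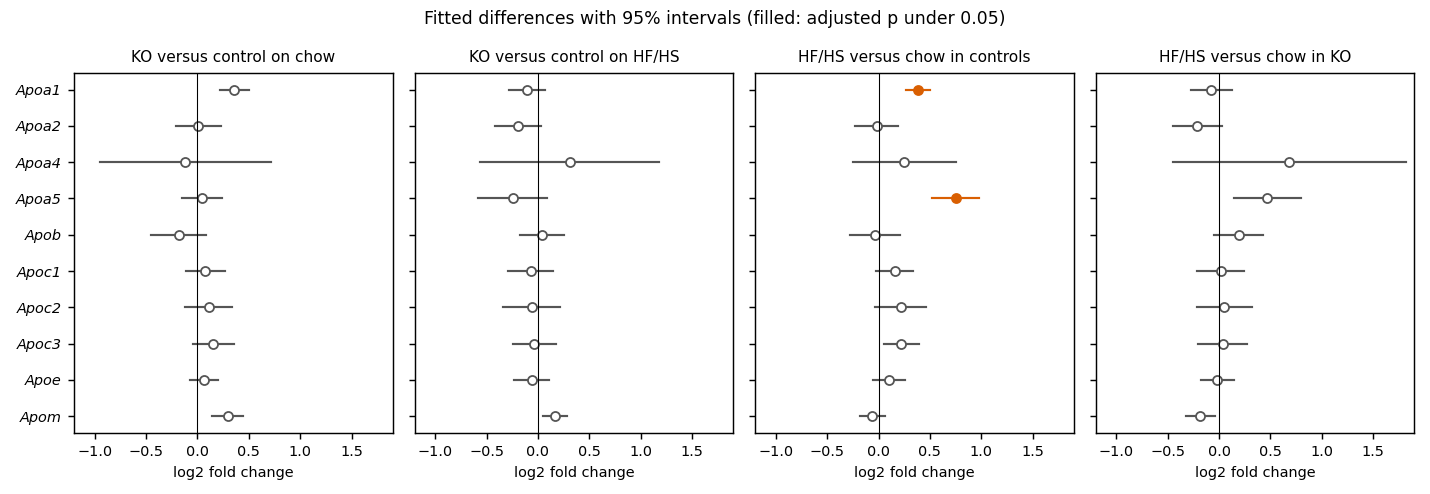
Fitted log2 fold changes (x axis) of the 10 genes in the 4 comparisons, with 95% intervals from edgeR's quasi-likelihood fit and filled orange points where the adjusted p was under 0.05. Only *Apoa1* at 0.39 and *Apoa5* at 0.75 are filled, both for HF/HS against chow in controls.

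Among the members that act on lipoprotein lipase, *Apoa5*, which lowers plasma triglycerides, had the largest change with diet. Controls lay between 541 and 630 CPM around a median of 582 on chow and between 711 and 1257 around 1071 on HF/HS, with every HF/HS control above every chow control. HGFAC-KO mice lay between 486 and 742 around 556 on chow and between 614 and 1122 around 748 on HF/HS, where 4 of 7 mice exceeded every chow-fed one. *Apoa5* rose by 0.75 in controls (SE 0.11, interval 0.52 to 0.98, adjusted p = 3.48e-04). In HGFAC-KO mice the difference was 0.47 (SE 0.15, interval 0.14 to 0.80) and missed the threshold (adjusted p = 0.0861), which it passed in DESeq2 (0.0320), with all mice in 1 fit (0.0368) and with the replicate number as a block (0.0248). The genotype difference in this response was -0.28 (interval -0.68 to 0.11, adjusted p = 0.984), so a smaller response in HGFAC-KO mice was not shown. Genotypes differed by 0.04 on chow (interval -0.15 to 0.24) and by -0.24 on HF/HS (interval -0.58 to 0.09, adjusted p = 0.642). Of the exon bases of *Apoa5*, 20.8% also lie in the antisense gene Gm47544.

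*Apoc3*, the inhibitor of lipoprotein lipase, was 904 ± 95.7 CPM (n = 7) in controls and 1003 ± 145 (n = 6) in HGFAC-KO mice on chow, and 1054 ± 117 and 1028 ± 174 (n = 7 each) on HF/HS. The diet difference in controls was 0.22 (interval 0.05 to 0.39) and did not pass (adjusted p = 0.0954), although 4 of 7 mice on HF/HS lay above every control on chow. *Apoc2*, the activator, had the lowest CPM of the family, at 173 ± 26.0 (n = 7) in controls and 186 ± 26.8 (n = 6) in HGFAC-KO mice on chow, and 201 ± 37.1 and 193 ± 36.2 (n = 7 each) on HF/HS. Its largest difference was also that of diet in controls, 0.21 (interval -0.04 to 0.47, adjusted p = 0.277). A read-through gene, Gm44805, shares 79.5% of the *Apoc2* exon bases on the same strand, so reads of both cannot be told apart.

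The genes of particle structure and clearance showed no difference past the threshold. *Apob* was 6297 ± 967 CPM (n = 7) in controls and 5526 ± 1065 (n = 6) in HGFAC-KO mice on chow, and 6151 ± 1137 and 6318 ± 537 (n = 7 each) on HF/HS. Its widest difference was 0.19 for diet in HGFAC-KO mice (interval -0.04 to 0.43, adjusted p = 0.332), which was 0.11 without HGFAC-KO mouse 1 on chow and -0.015 with the balance of long and short transcripts as a covariate. Between genotypes on chow it was -0.18 (interval -0.45 to 0.08, adjusted p = 0.823). *Apoe*, the most abundant member, was 20913 ± 1447 and 21735 ± 1615 on chow and 22484 ± 2318 and 21513 ± 1918 on HF/HS in controls and HGFAC-KO mice, and its 4 differences lay between -0.06 and 0.10. *Apoc1*, its neighbour on chromosome 7, was 2179 ± 173 and 2291 ± 343 on chow and 2435 ± 352 and 2316 ± 327 on HF/HS, with differences from -0.07 to 0.16. For *Apoe* the 4 intervals together reached from -0.23 to 0.26.

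From chow to HF/HS in controls, 2 of 10 members rose (*Apoa1* and *Apoa5*), where 10.5% of all genes passed and 4.93% passed upward, and 8 did not pass, with a median log2 difference of 0.19 over the 10 members beside 0.0036 over all genes. At an unadjusted p under 0.05 there were 3, *Apoc3* being the other, against 25.4% of genes. In HGFAC-KO mice none of the 10 passed, against 5.89% of genes, and 2 (*Apoa5* and *Apom*) had an unadjusted p under 0.05, against 22.4%. No member had all HF/HS values above all chow values there, as 1.70% of genes had, and the median was 0.02. In this comparison 6 of 7 Kupffer cell and macrophage markers rose, and their summed level was 138 to 204 CPM on chow and 191 to 295 on HF/HS. None of the 7 passed in controls, and their part in the members' values was not tested. Of the hepatocyte markers, 1 of 6 fell with diet in controls and 1 in HGFAC-KO mice. Of 5 stellate cell markers, 1 rose and 1 fell in controls, and of 5 sinusoidal endothelium markers 1 rose in HGFAC-KO mice. The interaction called 0 of 10 members and 0.0% of genes after adjustment, and 1 member (*Apoa1*) and 3.63% of genes at an unadjusted p under 0.05. The genotype comparisons and the diet comparisons share mice, so these counts are not independent of each other.

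*Apoa4*, a gene known to be raised in fasting and in fatty liver, differed most between mice of the same group. Its level ran from 276 to 2374 CPM over the 27 mice, an 8.61-fold range, where *Apoe* had a range of 1.38-fold. On chow, controls lay between 597 and 1291 around a median of 732, and HGFAC-KO mice between 285 and 1887 around 540. On HF/HS, controls lay between 519 and 1476 around 875, and HGFAC-KO mice between 276 and 2374 around 975. Both ends of the range on HF/HS were HGFAC-KO mice, and the groups overlapped throughout. The within-group SD of log2 CPM was 0.77, at the 98.4th percentile of all tested genes and at the 99.5th among the 1423 genes of at least 100 CPM. *Apom* had the lowest within-group SD of the family, 0.11.

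The differences of *Apoa4* between groups had wide intervals for this reason. On chow HGFAC-KO mice differed from controls by -0.12 (interval -0.95 to 0.71, adjusted p = 0.956), and by -0.68 without HGFAC-KO mouse 6, the 1 with 1887 CPM. On HF/HS the genotype difference was 0.31 (interval -0.56 to 1.18, adjusted p = 0.849), and the diet difference was 0.25 in controls (interval -0.25 to 0.75, adjusted p = 0.556) and 0.68 in HGFAC-KO mice (interval -0.45 to 1.81, adjusted p = 0.480). Leaving out 1 mouse at a time moved these 3 values widely. The genotype difference on HF/HS ran from 0.031, without HGFAC-KO mouse 2, to 0.48, without HGFAC-KO mouse 4. The diet difference in controls ran from 0.11, without control mouse 6 on HF/HS, to 0.41, without control mouse 4 on chow, and in HGFAC-KO mice from 0.40, without mouse 2 on HF/HS, to 1.25, without mouse 6 on chow. Changes of these sizes could not be resolved with 6 or 7 mice a group. On the opposite strand, Gm47528 and Gm10680 cover 34.9% and 34.8% of the *Apoa4* exon bases. A row without a gene name, listed between *Apoc3* and *Apoa4*, held from 0.552 to 0.614 counts per count of *Apoa4* in every mouse (median 0.565). The libraries were stranded, but the strand setting of the counting was not given in the sources used here.

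Among the 13932 genes tested over all mice, the patterns most like that of *Apoa4* were those of Cntnap1 (Pearson r = 0.84 over 27 mice), *Elovl5* (0.80), a fatty acid elongase, and *Cidec* (0.76), a lipid droplet protein. With group means removed these were 0.84, 0.82 and 0.83. *Apoa5* was most like *Inhbc* (0.85), *Srsf4* (0.84) and *Slc25a47* (0.83), and *Apoa1* most like *Arglu1* (0.79), *Tpt1* (0.79) and 2310039H08Rik (0.73). With group means removed these fell to 0.74, 0.61 and 0.60 for *Apoa5* and to 0.66, 0.67 and 0.56 for *Apoa1*. *Apob* was close to *Pds5a* (0.94), *Usf3* (0.93) and *Trip11* (0.93). *Apoa2* was closest to *Sod1* (0.91), *Mrpl14* (0.90) and *Lamtor4* (0.90), *Apoc1* to *Grcc10* (0.91), *Proc* (0.89) and *Arf5* (0.86), and *Apoe* to *Grcc10* (0.88), *Arf5* (0.87) and *Mpc2* (0.87). *Apoc3* resembled *Proc* (0.87), *Asgr1* (0.86) and *Ap2s1* (0.82), *Apom* resembled *Rpl36a* (0.83), *Avpi1* (0.81) and *Tcf3* (0.77, and 0.50 with group means removed), and *Apoc2* resembled *Col5a3* (0.73), *Fbp1* (0.71) and *Ebpl* (0.69). These values describe mice that share libraries and scaling, and they are ranked from many genes.

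Within groups the members did not vary as 1 family. Of 45 pairs, 13 had a group-centred r above 0.5 and 8 one below -0.3. *Apoa2*, *Apoc1*, *Apoe* and *Apoc3*, which lie on 3 chromosomes, varied together, with r from 0.72 (*Apoc3* and *Apoe*) to 0.92 (*Apoa2* and *Apoc1*). The latter value was 0.90 without the 2 mice farthest from the median, and the neighbours *Apoc1* and *Apoe* had 0.89 (0.84 without 2 mice). *Apob* and *Apoa4* stood outside this set, with *Apob* at -0.50 with *Apom* and -0.37 with *Apoa2*, and *Apoa4* at -0.48 with *Apoc1*. Inside the chromosome 9 cluster, *Apoa1* had 0.60 with *Apoa5* (0.43 without 2 mice), 0.52 with *Apoc3* (0.34 without 2 mice) and 0.01 with *Apoa4* (0.31 without 2 mice), and *Apoa4* had -0.30 with *Apoa5* (-0.45 without 2 mice). For comparison, 11.4% of all tested genes had a group-centred r above 0.5 with *Apoa2*, 7.49% with *Apob* and 1.62% with *Apoa4*.

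**Figure D4:**
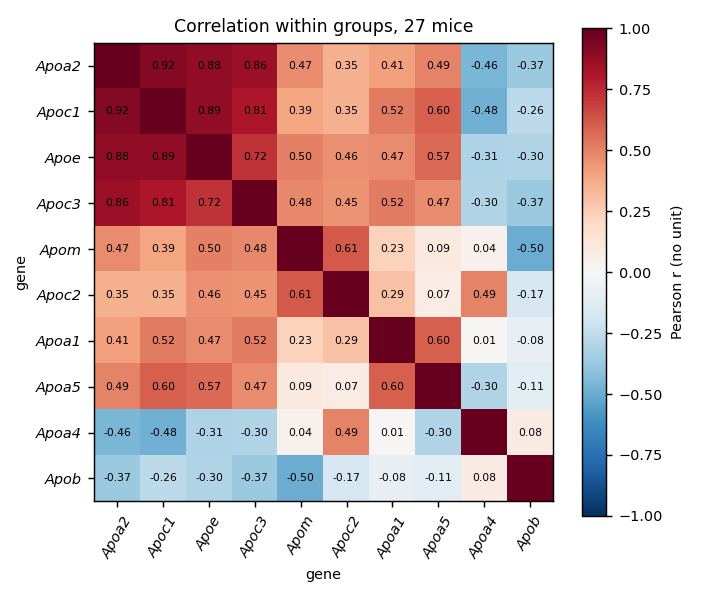
Pearson correlation (colour and number, no unit) of log2 CPM between each pair of the 10 genes over 27 mice after subtracting group means. *Apoa2*, *Apoc1*, *Apoe* and *Apoc3* form a block with values from 0.72 to 0.92, and *Apob* is negative with most others, down to -0.50 with *Apom*.

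Several members also varied with the balance of long and short transcripts in a library, though not in the order of their own lengths. For this balance, log2 CPM was first centred on each gene's mean over all mice. In each mouse the balance was the median of these values over long genes minus the median over short genes. Long genes were the 1385 longest (at least 9711 bases of merged exons) and short genes the 1385 shortest (at most 1666 bases). The balance is a measure added after the data were seen. Its group means were -0.01 ± 0.14 (SD, n = 7) in controls and -0.12 ± 0.20 (n = 6) in HGFAC-KO mice on chow, and 0.04 ± 0.12 and 0.06 ± 0.07 (n = 7 each) on HF/HS, and HGFAC-KO mouse 1 on chow was lowest at -0.42. *Apob*, with 13934 bases of merged exons the longest member, had a group-centred r of 0.78 with this balance. *Apoa2*, the shortest with 537 bases, had -0.75, and *Apoc3* had -0.75, *Apom* -0.72, *Apoc1* -0.65 and *Apoe* -0.65. *Apoc2* (813 bases) had -0.39, *Apoa1* -0.30, *Apoa4* 0.25 and *Apoa5* -0.22.

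**Figure D5:**
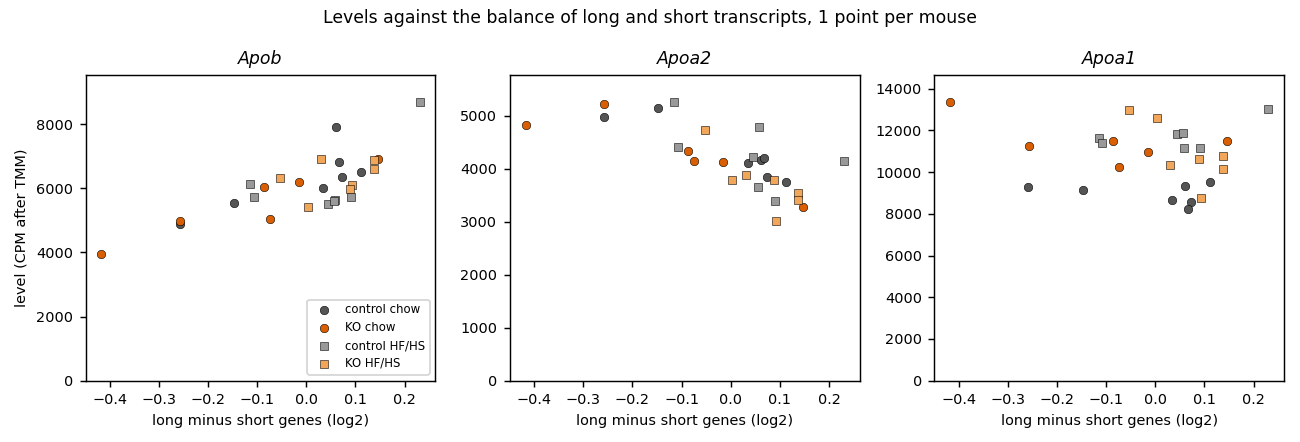
Level of *Apob*, *Apoa2* and *Apoa1* (y axis, CPM after TMM scaling, from 0) against the balance of long and short transcripts (x axis, log2 difference), with 1 point per mouse. *Apob* is low and *Apoa2* high in the mice with the lowest balance, down to -0.42, and *Apoa1* has the weakest relation of the 3, with a group-centred r of -0.30.

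With this balance as a covariate, *Apoa1* differed between genotypes on chow by 0.32 (adjusted p = 0.630 in edgeR) and rose in controls on HF/HS by 0.38 (adjusted p = 4.87e-04), and *Apoa5* rose in controls by 0.74. The difference of *Apom* on chow was 0.22, and that of *Apob* between genotypes on chow was -0.04 in place of -0.18. *Apoc3* then passed in controls on HF/HS, at 0.26 (adjusted p = 0.0112). What sets the balance was not tested.

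Other genes of lipoprotein metabolism were grouped by role. None of the 78 genes tested in 6 lists passed edgeR's adjusted threshold between genotypes on either diet or in the interaction, and 3 on chow, 8 on HF/HS and 6 in the interaction had an unadjusted p under 0.05, beside 5.98%, 9.64% and 3.63% of all genes. For the diet counts that follow, the share of all genes past the adjusted threshold was 10.5% in controls and 5.89% in HGFAC-KO mice. Among other apolipoproteins and lipoprotein-bound proteins, 4 of 13 tested rose and 1 fell on HF/HS in controls. *Apof* rose by 0.35 (534 ± 29.4 to 682 ± 63.3 CPM, adjusted p = 0.00136), *Apon* by 0.30, *Apol9a* by 0.78 and *Apol9b* by 0.49, and *Pon3* fell by 0.24. In HGFAC-KO mice *Apof* rose by 0.25 (adjusted p = 0.0345) and *Apol9a* by 0.69 (adjusted p = 0.0313). The *Apol9* genes are close copies, so reads may have been split between them.

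For assembly and secretion of VLDL, 1 of 13 genes rose and 2 fell on HF/HS in controls, and none passed in HGFAC-KO mice. *Cideb*, a protein of VLDL lipidation, rose by 0.23, and *Tm6sf2*, needed for lipid loading of VLDL, fell by 0.57 (34.9 ± 4.78 to 23.6 ± 4.91 CPM, adjusted p = 0.00719). *Mia3*, a cargo receptor for export from the endoplasmic reticulum, fell by 0.29. Of 4 genes for editing of the *Apob* mRNA, *Apobec1*, the editing enzyme that gives the shorter APOB form, rose in controls by 0.57 (11.3 ± 1.31 to 16.7 ± 3.07 CPM, adjusted p = 0.00290) and in HGFAC-KO mice by 0.42 (adjusted p = 0.0240), and the other 3 did not pass.

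Among genes of plasma remodelling and efflux, 2 rose on HF/HS in controls. These were *Lipc*, hepatic lipase, at 0.34 and *Angptl4*, an inhibitor of lipoprotein lipase, at 0.85 (adjusted p = 0.0495). In HGFAC-KO mice only *Abcg1*, a cholesterol exporter, rose, by 0.49. Of the receptor genes, *Scarb1*, the HDL receptor, rose by 0.28 in controls, while *Sdc1* fell by 0.29. *Sdc1*, a proteoglycan that binds remnant particles, also fell in HGFAC-KO mice, by 0.36, and was the only receptor gene to pass there.

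Regulators known to act on apolipoprotein genes made up the last list, of 26 genes. In controls on HF/HS 4 rose and 1 fell: *Ppara* by 0.42 (244 ± 30.6 to 328 ± 55.9 CPM, adjusted p = 0.0162), *Nr1d1*, a clock repressor, by 0.77, *Foxo1* by 0.21 and *Nr1h3* by 0.17 rose, and *Srebf2* fell by 0.42. In HGFAC-KO mice only *Foxa2* passed, and it fell by 0.29. The median log2 difference of this list in controls was 0.09, beside 0.0036 over all genes.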

How the data were processed

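The authors captured mRNA from snap-frozen liver, made stranded libraries, sequenced paired ends, aligned them with HISAT2 to GRCm38 (mm10) and counted reads per gene with featureCounts 1.6.3. They deposited 1 table of raw counts per gene for the 27 mice, without normalization. Of 27179 rows, 3886 name no gene (4.13% to 12.1% of a library). These rows were not used for scaling or testing, and 89 symbols on 191 rows were summed. Groups came from the labels, and no replicates matched within sampling noise.

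Tests across genes used edgeR 4.0.16 under R 4.3.3, with TMM scaling, filterByExpr (minimum count 10, minimum total 15), robust quasi-likelihood fits and Benjamini-Hochberg adjustment over all genes tested, with a threshold of 0.05. Each comparison used only its own mice, and the interaction used all 27. Replicates are separate mice, and the tests set differences between groups against the spread between mice. CPM and log2 CPM (prior count 2) used TMM factors over 27 mice. Lengths and coordinates were from GENCODE for GRCm38 (22983 of 23191 symbols), and promoter windows from RefSeq on GRCm38.p6. Named genes were the 10 members, the 3 genes most like each, and the list genes past the threshold, of which some are not reported here. The members and lists were chosen with earlier results of these data known. Alternatives were DESeq2 1.42.0, limma voom (limma 3.58.1), other filters and scalings, 1 fit of all mice, the replicate number as a block, leaving out each mouse, and, added after seeing the data, the length balance as a covariate. The fits were tested on simulated data.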

Additional observations from a re-analysis of the deposited data

Results flagged for a closer look

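Of 40 sets of values (10 genes in 4 groups), 4 held a mouse far from the rest of its group, where chance gives about 1 in 20. *Apoa1* of control mouse 2 on HF/HS was 13047 CPM, against 11164 to 11884 in the other 6. In the same mouse *Apob* was 8688 CPM, against 5508 to 6136, and its balance of long and short transcripts was 0.23, the highest of the 27. *Apoa4* of HGFAC-KO mouse 6 on chow was 1887 CPM, against 285 to 656 in the other 5. *Apoc3* of HGFAC-KO mouse 5 on HF/HS was 1401 CPM, against 874 to 1045 in the other 6.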

How the results depend on the processing

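The rise of *Apoa1* and *Apoa5* in controls on HF/HS passed under every alternative run, with log2 values from 0.36 to 0.40 and from 0.68 to 0.82 when 1 mouse was left out. With DESeq2, 13 genes and 2 members passed between genotypes on chow (10 and 1 without independent filtering), 55 genes on HF/HS, and 1401 genes and 1 member with diet in HGFAC-KO mice, and in the last comparison 1 member also passed with all mice in 1 fit. With all mice in 1 fit, 1 gene passed between genotypes on HF/HS, and with the length balance 283 passed with diet in HGFAC-KO mice.

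Same-numbered mice did not deviate together in every pair (correlation over 0.1 in 1 of 6, 3 of 7, 0 of 7 and 4 of 6 pairs). Mice of unlike number were not compared in this way, so whether the numbers mark a pairing cannot be told. The main fits did not use the replicate number. With it as a block, 774 genes passed with diet in controls and 1 member (*Apoa5*) in HGFAC-KO mice, and *Apoa2* on chow (-0.0059) and *Apoc1* with diet in HGFAC-KO mice (-0.0033) changed sign. With the length balance, signs changed between genotypes on chow for *Apoa2* (-0.11), *Apoa5* (-0.0060), *Apoc1* (-0.033) and *Apoe* (-0.0032), with diet in controls for *Apoa2* (0.036) and with diet in HGFAC-KO mice for *Apoa1* (0.030), *Apoa2* (0.013), *Apob* (-0.015) and *Apoe* (0.099). The causes were not tested.

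Leaving out 1 mouse gave 2 to 11 genes between genotypes on HF/HS (11 without HGFAC-KO mouse 5) and 467 to 950 with diet in HGFAC-KO mice (467 without HGFAC-KO mouse 2 on chow). Signs then changed for small differences: on chow *Apoa2* (-0.047 to 0.077), *Apoa4* (-0.68 to 0.048) and *Apoa5* (-0.027 to 0.098), on HF/HS *Apoc2* (-0.13 to 0.012) and *Apoc3* (-0.12 to 0.0017), with diet in controls *Apoa2* (-0.074 to 0.037) and *Apob* (-0.14 to 0.029), and with diet in HGFAC-KO mice *Apoc1* (-0.046 to 0.069), *Apoc2* (-0.015 to 0.11), *Apoc3* (-0.061 to 0.088) and *Apoe* (-0.055 to 0.011). Without control mouse 1 on HF/HS, *Apoc3* passed with diet in controls (0.27). Depth does not limit these genes.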
